A study of Homo sapiens with 6 samples.

Results

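The SLC39A genes encode the ZIP family of metal transporters, and 10 of its members were examined in MCF10A cells after a change of zinc. The members were SLC39A1, SLC39A3, SLC39A4, SLC39A6, SLC39A7, SLC39A8, SLC39A9, SLC39A10, SLC39A13 and SLC39A14, which are 10 of the 14 SLC39A genes among 20033 protein-coding genes annotated by GENCODE release 44. They were chosen by name and not by a measured value, though with earlier results of these data known. All coordinates are those of hg38. Each gene was examined together with 10 kb on either side, which gave windows of 731.5 kb in all on 9 chromosomes.

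ATAC-seq marks open chromatin by the fragments that the Tn5 transposase cuts from it. MCF10A cells are a human cell line from breast epithelium that does not form tumors. Cells of all 3 groups were first kept for 30 min in a phosphate-free, HEPES-buffered salt solution. They were then treated for 30 min with 50 μM TPA, a cell-permeable zinc chelator, with 30 μM ZnCl2, or with the solution alone (Ctrl), with 2 libraries per group and 6 in all. The study's text calls the replicates biological in one place and technical in another, so differences may be measured against a spread that is technical.

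ZIP proteins carry zinc into the cytosol, either from outside the cell or out of organelles, and the SLC30A (ZnT) exporters carry it the other way. Some ZIP proteins also carry iron, manganese or cadmium. The zinc-sensing transcription factor MTF1 binds metal response elements and is known to activate the metallothionein genes and SLC30A1 and to repress SLC39A10. Mammary epithelium is known for its large zinc demand, and SLC39A6 was first described as an estrogen-responsive gene of breast cancer cells.

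Each library came with its own list of open regions and a score per region, and no read counts were used, so the depth behind a value is unknown. A start site was taken as that of the canonical transcript, and it was covered when an open region spanned it. The level of a region is given as its percentile, the percent of regions in the same list with a lower score. The lists held between 18887 regions (ZnCl2 replicate 2) and 44641 regions (Ctrl replicate 2), and a short list places the same region at a lower percentile when the regions it lacks are the weak ones. Percentiles were therefore also taken among the 18887 highest-scoring regions of each list, which is called the equal-number setting. Of the other genes used to check the cell type, the basal epithelial marker ITGB4 was covered in all 6 libraries, the canonical start of the basal marker TP63 in none, and the luminal markers GATA3 and FOXA1 in all 6. Of 6 markers of other tissues, 5 were covered in no library, and GFAP in 1.

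The sequences below are promoters of members whose start-site percentile was lower in both libraries of a treated group than in both Ctrl libraries. Percentiles were those among all regions, and each promoter is on the strand of its gene. SLC39A14 also met this rule but had no promoter in the RefSeq table. The 3 promoters are the 250 bases before the start sites of SLC39A8 (chr4:102345483-102345732, minus strand), SLC39A13 (chr11:47408340-47408589, plus strand) and SLC39A10 (chr2:195656976-195657225, plus strand), from RefSeq on GRCh38.p14. Capitals mark the core of the metal response element, searched as TGCACNC or TGCGCNC on both strands.
SLC39A8 promoter: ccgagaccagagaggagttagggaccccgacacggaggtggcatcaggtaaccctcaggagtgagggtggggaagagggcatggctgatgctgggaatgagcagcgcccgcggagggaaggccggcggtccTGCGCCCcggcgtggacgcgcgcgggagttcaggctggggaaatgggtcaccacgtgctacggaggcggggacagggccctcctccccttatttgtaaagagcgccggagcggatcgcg
SLC39A13 promoter: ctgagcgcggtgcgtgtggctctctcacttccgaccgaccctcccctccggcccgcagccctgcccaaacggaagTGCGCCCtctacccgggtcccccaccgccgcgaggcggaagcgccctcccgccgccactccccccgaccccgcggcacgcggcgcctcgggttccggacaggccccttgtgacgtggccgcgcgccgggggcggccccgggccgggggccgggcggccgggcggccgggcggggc
SLC39A10 promoter: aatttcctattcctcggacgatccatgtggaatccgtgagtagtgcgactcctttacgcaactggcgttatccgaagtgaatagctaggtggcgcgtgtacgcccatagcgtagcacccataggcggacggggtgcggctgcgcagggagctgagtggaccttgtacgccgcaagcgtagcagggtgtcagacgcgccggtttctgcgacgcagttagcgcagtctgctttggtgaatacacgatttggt

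The metal response element core was present in 6 of the 8 members whose promoter was in the RefSeq table, beside 29.6% of 35116 promoters of 300 bases. The match lay at -119 in SLC39A8, -175 in SLC39A13, -236 in SLC39A1, -128 in SLC39A3 and -17 in SLC39A6, counted in bases from the start site of the RefSeq promoter, and at 33 in SLC39A10, beyond the stretch shown. SLC39A7 and SLC39A9 had no match, and SLC39A4 and SLC39A14 had no entry. The GC box GGGCGG was found in 6 of 8, beside 45.0% of all promoters, and the AP-1 site TGANTCA in 0 of 8, beside 7.71%. No match of one motif overlapped a match of another in these promoters. A match is a description of the letters and not a bound site.

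Most start sites of the 10 members were open in untreated cells and after either treatment. Of the 4 SLC39A genes left out, 1 was covered in all 6 libraries and 1, SLC39A12, in none. The start sites of SLC39A1, SLC39A3, SLC39A6, SLC39A8, SLC39A10, SLC39A13 and SLC39A14 were covered in all 6 libraries, 7 of 10, beside 43% of protein-coding genes. Between 7 (ZnCl2 replicate 2) and 10 (ZnCl2 replicate 1) members were covered per library, while the share of all protein-coding starts ran from 46.3% to 60.8%. The median member stood at the 74.5 and 80.6 percentile in the Ctrl libraries, 63.4 and 72.1 in TPA, and 83.1 and 68.0 in ZnCl2. For all covered protein-coding starts the medians were 69.2 and 80.1, 70.3 and 74.7, and 77.4 and 65.1 in the same order. A lower percentile may stand for fewer cells with the site open, for a less open site per cell, or for a rise of other regions in the list. These cannot be told apart, and the length of the list moves the percentile as well.

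**Figure D1:**
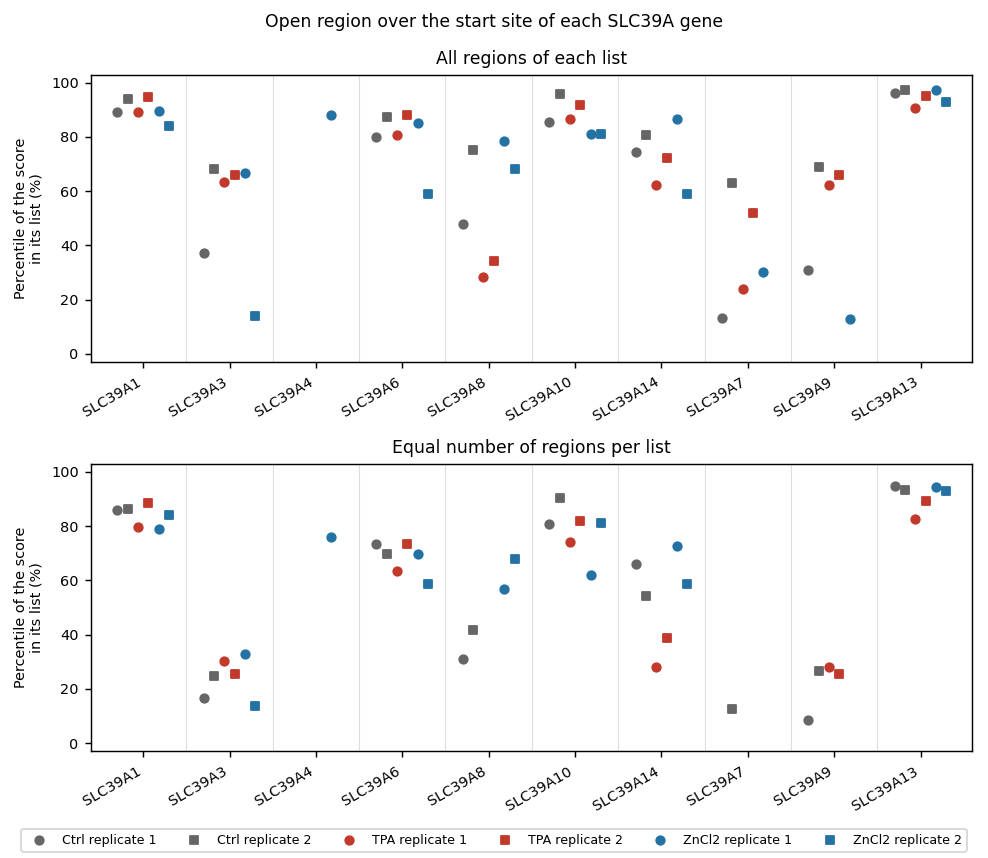
Percentile of the open region over the start site of each SLC39A gene (vertical axis, percent of regions in the same list with a lower score) in each of the 6 libraries, among all regions (top) and the 18887 highest-scoring regions of each list (bottom). A missing point means that no region covered the start site. The TPA points of SLC39A8 lie at 28.5 and 34.3 at the top, below the other 4, and are missing at the bottom, while SLC39A13 stays between 90.8 and 97.3 at the top.

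The windows were richer in open chromatin than the genome. Each window holds a coding gene by its making, and windows of other coding genes were not compared, so this is not a trait of the SLC39A genes. Open regions took between 6.40% and 11.6% of the windows, against 1.16% to 3.05% of the genome, which was 2.96-fold to 6.11-fold more. The 6 lists held 25 and 31 (Ctrl), 30 and 32 (TPA) and 32 and 21 (ZnCl2) regions in the windows, and from 20 to 22 in the equal-number setting. Merged over the libraries these were 32 regions, of which 19 were open in every library, 59.4% beside 32.0% of all 49527 merged regions. The member's own start site lay in 10 of them, the start of another coding gene in 7, and no coding start in 15. Of the 17 over a coding start, 14 were open in all 6 libraries, and of the other 15, 5 were.

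Comparing TPA with Ctrl addressed what zinc removal did at these loci. The start-site percentile was lower in both TPA libraries than in both Ctrl libraries for 3 of the 9 members covered in all 4, namely SLC39A8, SLC39A13 and SLC39A14, beside 22.3% of 9726 protein-coding genes. It was higher in both for 0 of 9, beside 11.4%. These shares are near the background, and the median difference was -0.19 percentile points over the members and -0.16 over all genes. With equal-number lists it was -3.01 over the members and -2.82 over all genes, of which 63.0% were below 0. With 2 libraries against 2, the two-sided exact permutation test cannot give a p below 0.333, so none of these differences could pass a threshold of 0.05. Leaving out a library loosens the rule, so a count can only grow and cannot show whether a call rests on that library. Then 7 members were lower without Ctrl replicate 1, and 5 were higher without Ctrl replicate 2 and 2 without TPA replicate 1. No share of all genes under this looser rule is given beside these counts, so they are not a result about the members. The median percentile of all covered coding starts also differed between the Ctrl libraries (69.2 and 80.1).

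SLC39A8 (ZIP8, chr4:102251080-102431258, minus strand), a carrier of zinc, manganese and cadmium, had the largest difference of any member at its start site. The percentile was 47.9 and 75.3 in Ctrl, 28.5 and 34.3 in TPA, and 78.6 and 68.0 in ZnCl2. Both TPA libraries were the lowest of the 6, and the mean was 31.4 ± 4.1 (SD, n = 2) in TPA against 61.6 ± 19.4 in Ctrl and 73.3 ± 7.5 in ZnCl2. Among equal-number lists the Ctrl values were 30.9 and 41.7, the ZnCl2 values 56.8 and 68.0, and the start site was covered in neither TPA list. In that setting both ZnCl2 values were above both Ctrl values, whereas among all regions the 2 groups overlapped. The difference of TPA from Ctrl was -30.2 points, and it was -16.4 without Ctrl replicate 2 and -43.9 without Ctrl replicate 1.

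SLC39A8 has another open region at the far 5′ end of its gene record, where a transcript without a defined coding sequence starts, at -85776 bases from the canonical start. The merged region (chr4:102428791-102432030) holds no coding start by the canonical rule and was open in all 6 libraries. Its highest call stood at the 31.0 and 65.7 percentile in Ctrl, 76.0 and 81.7 in TPA, and 56.4 and 43.9 in ZnCl2. Both TPA libraries were thus the highest here, where they were the lowest at the canonical start. The equal-number values kept this order, with 8.5 and 18.8 in Ctrl, 54.4 and 59.8 in TPA, and 12.02 and 43.9 in ZnCl2.

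The lists split this region into a call over the start of this distal transcript and another just downstream of it, a division made after the values were seen. The call over the transcript start stood at 31.0 and 47.0 in Ctrl, 37.4 and 25.7 in TPA, and 56.4 and 43.9 in ZnCl2, so the TPA and Ctrl values overlapped. The downstream call stood at 9.1 and 65.7 in Ctrl, 76.0 and 81.7 in TPA, and 36.4 in ZnCl2 replicate 1, with no call in ZnCl2 replicate 2. The high TPA values therefore came from the downstream part and not from the transcript start. Another region still farther out (chr4:102438751-102440170) was open in both TPA lists at 18.6 and 3.4, in Ctrl replicate 2 at 17.1 and in no ZnCl2 list.

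**Figure D2:**
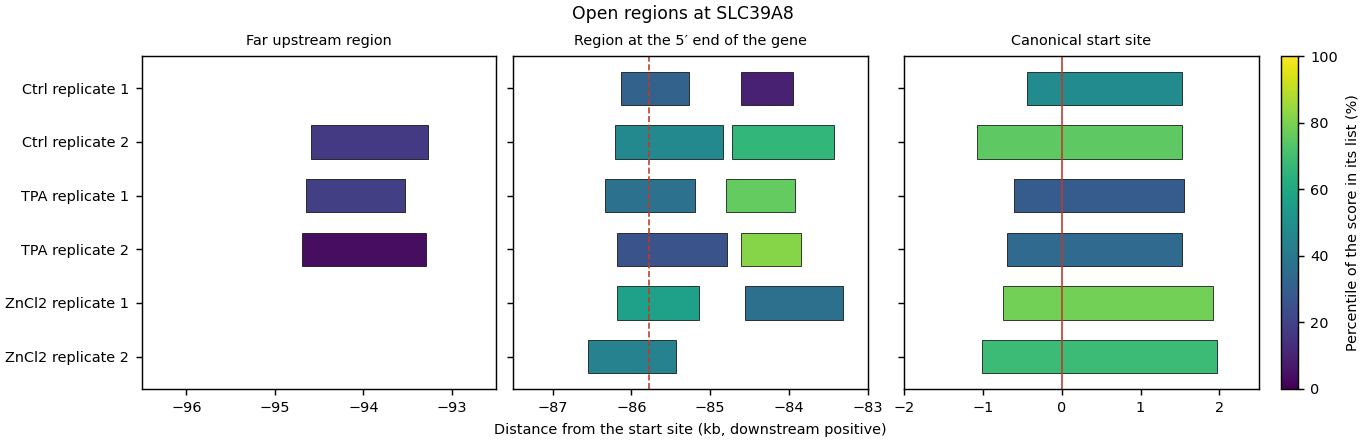
Open regions at SLC39A8 in each library, as bars along the distance from the canonical start site (horizontal axis, kb, minus values upstream), colored by percentile. The solid line is the canonical start and the dashed line the start of the distal transcript. The bars of the TPA libraries are the darkest at the canonical start (28.5 and 34.3) and the brightest just downstream of the dashed line (76.0 and 81.7).

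SLC39A14 (ZIP14, chr8:22367278-22434129, plus strand), a close relative of SLC39A8 that carries zinc, iron and manganese, differed at its start site in the same direction. The percentile was 74.5 and 80.6 in Ctrl, 62.1 and 72.1 in TPA, and 86.5 and 58.8 in ZnCl2. TPA lay below Ctrl and overlapped ZnCl2, and in the equal-number setting TPA (27.9 and 38.8) lay below both Ctrl (66.1 and 54.1) and ZnCl2 (72.7 and 58.8).

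The region over the start of the neighbor PPP3CC, 72143 to 75582 bases past the SLC39A14 start, went the same way as the start site of the member. It stood at 80.8 and 87.7 in Ctrl, 50.4 and 61.1 in TPA, and 83.8 and 58.8 in ZnCl2, and in the equal-number setting TPA (5.65 and 14.8) lay below both Ctrl (74.6 and 71.0) and ZnCl2 (67.4 and 58.8).

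TPA was above Ctrl at 2 other regions of the SLC39A14 window. The region at 24503 to 27132 bases past the start, over the start of another coding transcript, stood at 47.9 and 41.2 in Ctrl, 62.1 and 61.1 in TPA, and 49.9 in ZnCl2 replicate 1, with no call in ZnCl2 replicate 2. The region at -9507 to -7708 bases stood at 45.1 and 51.0 in Ctrl, 65.9 and 64.8 in TPA, and 41.9 and 25.3 in ZnCl2. Neither order held in the equal-number setting, where each was not called in at least 1 Ctrl list and the TPA values (27.9 and 14.8, and 35.2 and 22.8) lay around or below those of Ctrl replicate 1 (30.9 and 27.3). The highest region that holds no start of the member, an intronic one at 12773 to 18062 bases, stood between 68.0 and 83.6 in all 6 libraries.

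SLC39A13 (ZIP13, chr11:47407132-47416496, plus strand), which releases zinc from Golgi and vesicle stores and is mutated in a form of Ehlers-Danlos syndrome, was the highest placed member. Its start-site percentile was 96.0 and 97.3 in Ctrl, 90.8 and 95.2 in TPA, and 97.2 and 93.0 in ZnCl2. The difference of TPA from Ctrl was -3.65 points, and it was -1.46 without TPA replicate 1 and -5.84 without TPA replicate 2. With equal-number lists the TPA values were 82.5 and 89.5, below all 4 others, which lay between 93.0 and 94.7. A second region inside the gene, at 4411 to 8700 bases past the start, stood at 56.8 and 86.8 in Ctrl, 80.0 and 76.5 in TPA, and 76.3 and 55.2 in ZnCl2, with TPA above both ZnCl2 libraries and within the range of Ctrl.

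SLC39A4 (ZIP4, chr8:144409742-144416844, minus strand), the intestinal zinc importer mutated in acrodermatitis enteropathica, was covered at its canonical start in ZnCl2 replicate 1 alone. A strong region nevertheless lay in its gene body in every library. Its percentile was 89.8 and 94.0 in Ctrl, 59.4 and 61.1 in TPA, and 88.2 and 86.3 in ZnCl2, and in the equal-number setting 86.5 and 85.9, 22.8 and 14.8, and 76.2 and 86.3. Both TPA libraries were below all 4 others in both settings. The ZnCl2 values were below Ctrl among all regions and overlapped Ctrl in the equal-number setting.

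The region of SLC39A4 also differed in extent. It was 2550 and 3520 bp wide in Ctrl, 2030 and 2410 bp in TPA, and 5610 and 4280 bp in ZnCl2, with no overlap between any pair of groups. Its edge stopped short of the canonical start by 1484 and 1324 bases in Ctrl, by 2514 and 2194 in TPA and by 884 in ZnCl2 replicate 2, and it passed the start only in ZnCl2 replicate 1. The starts of 6 of the 9 annotated SLC39A4 transcripts, none of which has a defined coding sequence, lay inside the call of each library. These values describe a region outside the start-site counts above, since the start site was not covered.

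Regions over the starts of both neighbors of SLC39A4 differed between TPA and Ctrl as well. The start of VPS28, a subunit of the endosomal sorting complex, lies outside the window, and only its merged region reached in. The highest call of that region stood at 95.8 and 91.8 in Ctrl, 82.9 and 83.0 in TPA, and 91.2 and 81.1 in ZnCl2. Both TPA values and that of Ctrl replicate 1 came from calls beyond the window. Inside the window the TPA calls of this region stood at 33.1 and 50.3, and Ctrl replicate 1 had none. The region over the start of CPSF1, a subunit of the polyadenylation complex, stood at 76.6 and 87.7 in Ctrl, 92.5 and 90.7 in TPA, and 86.1 and 75.1 in ZnCl2. TPA was therefore below Ctrl on one side of SLC39A4 and above it on the other, and both orders held in the equal-number setting (67.4 and 62.7 against 94.5 and 80.5 for VPS28, and 85.7 and 79.7 against 69.0 and 71.0 for CPSF1).

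**Figure D3:**
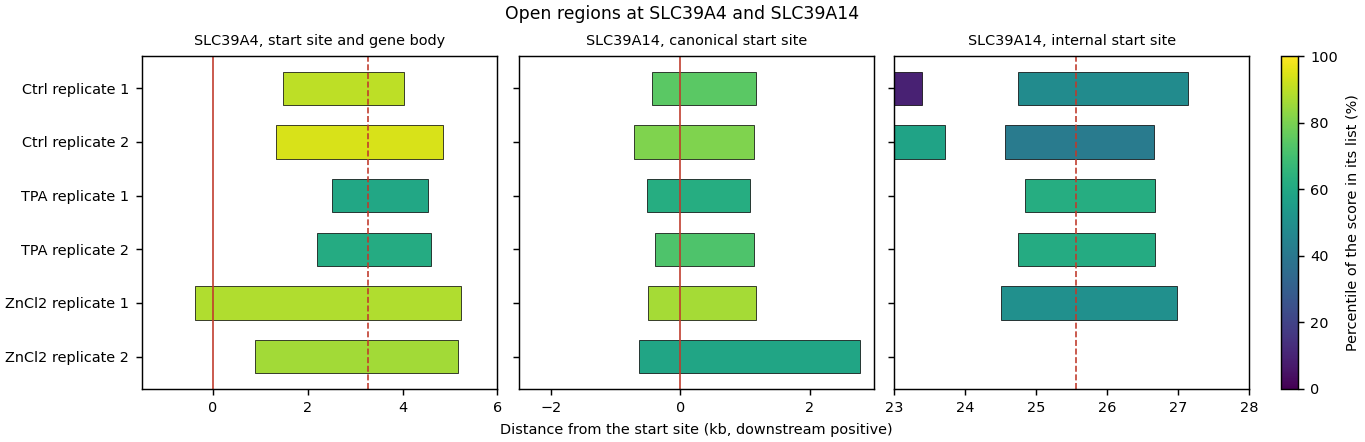
Open regions at SLC39A4 (left) and SLC39A14 (middle and right) in each library, as bars along the distance from the canonical start site (horizontal axis, kb), colored by percentile. Solid lines are canonical starts, and dashed lines the starts of an internal transcript of each gene. The SLC39A4 bar reaches the solid line in ZnCl2 replicate 1 only, and is narrowest in the TPA libraries (2030 and 2410 bp).

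SLC39A10 (ZIP10, chr2:195575977-195737702, plus strand) pairs with SLC39A6 at the cell surface. Of the 7 members covered in ZnCl2 and Ctrl, it alone had both ZnCl2 values below both Ctrl values, beside 13.1% of 8823 genes. The mean was lower in ZnCl2 for 6 of the 7 and higher for 1, beside 68.8% of genes lower. The falls of SLC39A3 (-12.4 points) and SLC39A6 (-11.6 points) were larger, with overlap. The start-site percentile of SLC39A10 was 85.6 and 95.9 in Ctrl, 86.5 and 91.7 in TPA, and 81.2 and 81.1 in ZnCl2. Both ZnCl2 values were below the other 4, and the difference from Ctrl was -9.63 points, and it was -4.45 without Ctrl replicate 2 and -14.8 without Ctrl replicate 1. In the equal-number setting the ZnCl2 values (62.1 and 81.1) overlapped Ctrl (80.9 and 90.4) and TPA (74.3 and 81.7), so the order rested on the use of lists of unequal length. Another region of the gene record, at -35085 to -33526 bases was called in Ctrl replicate 2 at 44.2, in TPA at 58.0 and 67.0 and in ZnCl2 replicate 1 at 6.72. Among equal-number lists it was called in the TPA lists alone, at 20.1 and 27.7.

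Comparing ZnCl2 with Ctrl addressed what added zinc did. The start-site percentile was lower in both ZnCl2 libraries for 1 of 7 members (SLC39A10), beside 13.1% of 8823 genes, and higher for 0 of 7, beside 2.6%. The median difference was -5.00 points over the members and -2.78 over all genes, and with equal-number lists it was -0.45 and 0.66. Without Ctrl replicate 1 there were 5 members lower, and without ZnCl2 replicate 1 there were 6. Without ZnCl2 replicate 2, 2 were lower and 2 higher, and without Ctrl replicate 2, 1 was higher. Comparing TPA with ZnCl2 directly, 1 of 7 members was lower in TPA (SLC39A8), beside 17.8% of 8821 genes, and 1 was higher (SLC39A10), beside 21.4%. Without ZnCl2 replicate 2, 4 were lower and 2 higher, without ZnCl2 replicate 1, 5 were higher, without TPA replicate 1, 3 were higher, and without TPA replicate 2, 2 were lower. The counts with a library left out again have no share of all genes beside them and are not a result about the members.

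List length moved the genes that were called. In the equal-number setting SLC39A13 and SLC39A14 were lower in TPA than in Ctrl (2 of 7 members, beside 34.4% of genes) and SLC39A3 was higher (1 of 7, beside 13.8%). SLC39A1 was lower in ZnCl2 than in Ctrl (1 of 7, beside 18.3%) and SLC39A8 was higher (1 of 7, beside 23.4%). SLC39A13 and SLC39A14 were lower in TPA than in ZnCl2 (2 of 6, beside 39.2%) and none was higher (0 of 6, beside 17.9%). SLC39A13 and SLC39A14 were thus lower in TPA than in Ctrl in both settings, and SLC39A8 dropped out because the TPA lists no longer held it.

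SLC39A1 (ZIP1, chr1:153959099-153968184, minus strand), a widely expressed plasma membrane importer, stood at 89.3 and 94.2 in Ctrl, 89.3 and 94.8 in TPA, and 89.5 and 84.0 in ZnCl2. Its start lies in a cluster of open calls that merged into a region of 14340 bp, which also holds the starts of CRTC2 and CREB3L4 and whose highest call stood between 97.8 and 99.4 in all 6 libraries. Other coding SLC39A1 transcripts start at -4647 to -4084 bases, in a separate call of this cluster in every library. That call stood at 98.7 and 98.2 in Ctrl, 99.0 and 99.3 in TPA, and 95.3 and 94.6 in ZnCl2. In the equal-number setting ZnCl2 (90.5 and 94.6) again lay below Ctrl (98.3 and 95.7) and TPA (98.0 and 98.4). The neighboring region over the start of JTB stood at 73.3 and 76.0 in Ctrl, 33.1 and 62.4 in TPA, and 56.4 and 28.7 in ZnCl2, with both treatments below Ctrl.

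SLC39A6 (ZIP6 or LIV-1, chr18:36108531-36129385, minus strand) shares its start-site region with the divergent gene ELP2, and stood at 79.9 and 87.2 in Ctrl, 80.8 and 87.9 in TPA, and 85.0 and 58.8 in ZnCl2. It was the only region in the SLC39A6 window. SLC39A3 (ZIP3, chr19:2732204-2740028, minus strand), another plasma membrane importer, stood at 37.1 and 68.2 in Ctrl, 63.4 and 65.9 in TPA, and 66.6 and 13.9 in ZnCl2. No pair of groups was apart for either gene among all regions. The other region in the SLC39A3 window, 15827 bases or more past the start, was at or below 10.1 in Ctrl replicate 1 and both TPA libraries and at 48.4 in ZnCl2 replicate 1.

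SLC39A7 (ZIP7, chr6:33200305-33204439, plus strand) releases zinc from the endoplasmic reticulum and shares its start-site region with RXRB. It stood at 13.1 and 63.0 in Ctrl, 23.9 and 51.8 in TPA, and 30.3 in ZnCl2 replicate 1, and was not covered in ZnCl2 replicate 2. In the equal-number setting it was covered in Ctrl replicate 2 alone, at 12.5. This made it the weakest start site among the 10 members in these lists apart from SLC39A4. The strongest other region of its window, over the start of HSD17B8, stood between 32.0 and 74.4. SLC39A9 (ZIP9, chr14:69398015-69462390, plus strand), a Golgi and plasma membrane protein, shares its start-site region with ERH, and stood at 31.0 and 69.0 in Ctrl, 62.1 and 65.9 in TPA, and 12.9 in ZnCl2 replicate 1, with no region in ZnCl2 replicate 2. In the equal-number setting neither ZnCl2 list covered it, while Ctrl (8.5 and 26.6) and TPA (27.9 and 25.3) did. Its other region was called once, in ZnCl2 replicate 1 at 3.52.

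The width of the start-site region gave another view of the same lists. Each of the 9 members covered in TPA and Ctrl had a smaller mean width in TPA, and the median difference was -545 bp, beside -325 bp over all genes, of which 80.6% had a smaller mean in TPA. The 2 groups did not overlap for SLC39A3 (1590 and 1470 bp in Ctrl, 940 and 1030 bp in TPA) and SLC39A7 (2030 and 3060 bp, 1650 and 1630 bp), 2 of 9, beside 16.6% of genes, and none was wider in TPA (0 of 9, beside 1.9%). Without Ctrl replicate 1 all 9 were narrower in TPA, without TPA replicate 2, 4 were, and without Ctrl replicate 2, 4 were wider. The share of all genes under this looser rule is not given, so these counts are not a result about the members. Over all covered coding starts the median width was 1690 and 2760 bp in Ctrl and 1830 and 1880 bp in TPA. The count narrower in TPA was 1 with equal-number lists and 0 among the higher-scoring 50% of regions in each list.

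Against ZnCl2 the narrowing was more widely shared, by the members and by other genes. The regions of SLC39A1, SLC39A3, SLC39A6, SLC39A8, SLC39A13 and SLC39A14 were narrower in both TPA libraries than in both ZnCl2 libraries, 6 of 7 members, beside 55.2% of genes, and none was wider (0 of 7, beside 2.56%). SLC39A8 measured 2160 and 2220 bp in TPA and 2670 and 2980 bp in ZnCl2, and SLC39A13 3510 and 3190 bp against 4280 and 4250 bp. Between ZnCl2 and Ctrl, SLC39A8 was wider in ZnCl2 (1980 and 2610 bp in Ctrl), 1 of 7, beside 10.9%, and none was narrower (0 of 7, beside 2.47%). Without Ctrl replicate 2, 6 members were wider in ZnCl2, without ZnCl2 replicate 1, 4 were, and without Ctrl replicate 1, 3 were narrower. Here too no share of all genes is given, and the median width over all covered coding starts was 2150 and 2600 bp in ZnCl2. The count wider in ZnCl2 than in Ctrl was 0 with the upper 50% of each list and 0 at the 5′ end of the gene record, where 1 member was also wider in TPA than in ZnCl2.

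**Figure D4:**
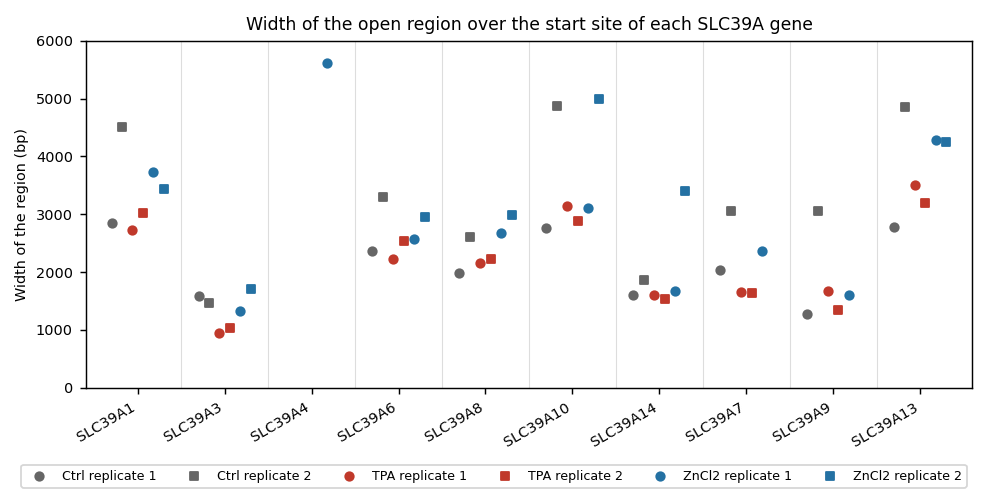
Width in bp (vertical axis, from 0) of the open region over the start site of each SLC39A gene in each library. In 6 of 7 members covered in both groups, both TPA points lie below both ZnCl2 points, and Ctrl replicate 2 gives the widest Ctrl region in all members but SLC39A3.

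Few regions of the windows were present in one group and absent from another. Of 32 regions, 1 was open in both TPA and neither Ctrl list, beside 2.04% of all 49527, and 0 the reverse, beside 0.703%. It lay over the start of RING1, a Polycomb protein, in the SLC39A7 window (chr6:33207511-33209190), stood at only 18.6 and 3.39 in TPA, and was also open in ZnCl2 replicate 1. None was open in ZnCl2 and not Ctrl (0.172% of all) or in Ctrl and not ZnCl2 (1.73%). The outermost SLC39A8 region was the only one open in TPA and not ZnCl2, where 9.73% of all regions were, and none was open in ZnCl2 and not TPA (0.991%). Without ZnCl2 replicate 1 there were 8 regions open in TPA and not ZnCl2, and without TPA replicate 1 there were 3. Without Ctrl replicate 1, 2 regions were open in TPA and not Ctrl, 2 in Ctrl and not TPA and 3 in Ctrl and not ZnCl2, and without Ctrl replicate 2, 4 were open in TPA and not Ctrl. Without ZnCl2 replicate 2, 2 were open in ZnCl2 and not Ctrl and 2 in ZnCl2 and not TPA, and without ZnCl2 replicate 1, 3 were open in Ctrl and not ZnCl2. Without TPA replicate 1, 2 were open in TPA and not Ctrl. No share of all 49527 regions is given for the counts with a library left out, so they are not a result about the windows. The lists held 18887 regions in ZnCl2 replicate 2, and 35902 and 41376 in the TPA libraries.

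The regions of the windows were also compared between TPA and Ctrl by their highest call. Of the 22 window regions called in all 4 lists, the highest call was lower in both TPA libraries for 7, beside 12.6% of 22309 regions, and higher for 4, beside 25%. All 7 lower ones, among them the regions of SLC39A4, SLC39A8, SLC39A13 and SLC39A14, held a canonical coding start in their merged extent, 7 of 16, beside 22.6% of such regions, and 1 over a coding start was higher (1 of 16, beside 11.9%). The merged region of SLC39A4 reached its start through the call of ZnCl2 replicate 1 alone, and no TPA or Ctrl call covered that start. Of the 6 over no canonical coding start, 3 were higher, beside 33.3%, and 0 lower, beside 6.17%, and 1 of these 3, that of SLC39A14 at 24503 to 27132 bases, lay over the start of another coding transcript. This division by start site was made after the values were seen, and neighboring regions of 1 window are not independent of each other.

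In the other comparisons the same regions were spread as follows. The highest call was lower in ZnCl2 than in Ctrl for 6 of 19 regions, beside 17.3%, and higher for 0, beside 2.63%. It was lower in TPA than in ZnCl2 for 2 of 19 (SLC39A4 and SLC39A8, at their gene-body and start-site regions), beside 12.4%, and higher for 8, beside 36.9%. With percentiles among all regions, both of these were also below Ctrl in both TPA libraries. In the equal-number setting the SLC39A8 start was not called in TPA, and the regions over the starts of VPS28, SLC39A13, SLC39A14 and PPP3CC lay below both Ctrl and ZnCl2 as well as the SLC39A4 region.

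**Figure D5:**
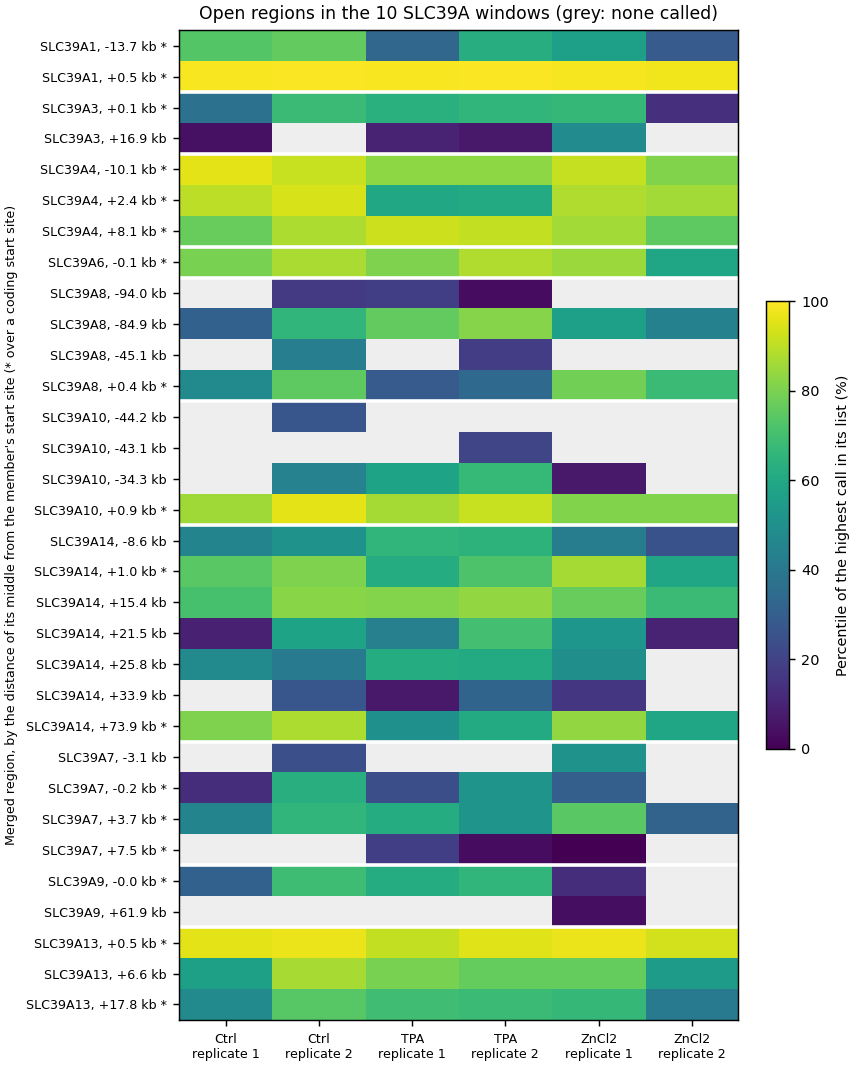
Percentile of the highest call in each of the 32 merged regions of the SLC39A windows (rows, by the distance in kb of the middle from the member's start site, an asterisk for regions over a coding start) in each of the 6 libraries (columns), with grey where none was called. The TPA columns are darker at the SLC39A4 gene-body region (59.4 and 61.1) and the SLC39A8 start (28.5 and 34.3), and brighter at the region at the far 5′ end of SLC39A8 (76.0 and 81.7).

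The other genes of zinc handling were set beside the importers. Of 26 such genes, 10 were covered at the start site in all 6 libraries and 12 in none, namely SLC39A12, SLC30A2, SLC30A3, SLC30A8, SLC30A10, MT1A, MT1B, MT1G, MT1H, MT1M, MT3 and MT4. The exporter SLC30A1 stood between 98.6 and 99.5 in all 6 libraries, above every SLC39A start site. MTF1 stood at 70.7 and 88.1 in Ctrl, 82.1 and 92.0 in TPA, and 84.7 and 81.1 in ZnCl2, with overlap. The metallothionein gene MT2A stood at 70.7 and 79.6 in Ctrl, 80.8 and 86.5 in TPA, and 82.9 and 81.1 in ZnCl2, both treatments above Ctrl, and MT1E at 34.2 and 70.6, 43.4 and 36.3, and 87.9 and 25.3, with overlap throughout. Of the 6 exporters tested, 1 was lower in TPA than in Ctrl (SLC30A4) and 0 were higher, and of the 4 metallothionein genes, 2 were lower (MT1F and MT1X) and 1 was higher (MT2A), beside 22.3% of all genes lower and 11.4% higher. Against ZnCl2, 3 of 6 exporters were higher in TPA (SLC30A1, SLC30A5 and SLC30A9), beside 21.4%, and 0 were lower, beside 17.8%. With percentiles among all regions, no gene of this list was apart in the same direction for both percentile and width. In the equal-number setting the exporter SLC30A7 was, with a higher percentile in ZnCl2 than in Ctrl (71.6 ± 0.33 against 64.3 ± 2.6, SD, n = 2) and a wider region (3380 and 3510 bp against 2510 and 3130 bp).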

How the data were processed

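The authors trimmed reads with BBDuk, checked them with FastQC 0.11.8, mapped pairs to hg38 with HISAT2 2.1.0 and SAMtools 1.8, and ran HMMRATAC on each library by itself. Groups and replicate numbers came from the sample labels. The deposited lists give each open region and a whole-number score from the authors' caller, whose version and kind of score are not given in the sources used here, so scores served only as ranks within a list. Counting of reads with DESeq2, as in the study, needs reads and was not repeated, and depth is unknown.

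Autosomes and sex chromosomes were used, and all 203906 regions on them lay within hg38. An overlap of 1 bp counted, and overlapping or touching regions of the 6 lists were joined into merged regions. A member counted as lower or higher when both libraries of one group lay on the same side of both of the other. Single differences had a two-sided exact permutation test over libraries. The members and lists were chosen with earlier results of these data known. Named were all members, regions open in both libraries of one group and neither of another, the highest region by mean percentile per window without the member's start, and, of the other zinc genes, those covered nowhere, SLC30A1, MTF1, MT1E, MT2A and any apart for percentile and width. Other regions and neighbors were named after their values were seen. The deviations of same-numbered libraries had correlations of 0.177 (TPA and Ctrl), -0.455 (ZnCl2 and Ctrl) and -0.133 (TPA and ZnCl2), and the libraries were not paired. One marker gene and the sequences of distal regions are not reported here. Alternatives are listed with their effect at the end. The procedures were tested on simulated data. The software was Python 3.11.15 (NumPy 2.4.6, pandas 2.3.3, Matplotlib 3.10.9), with SciPy 1.17.1 and bedtools 2.31.1 for tests of the procedures.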

Additional observations from a re-analysis of the deposited data

How the results depend on the processing

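The counts of SLC39A members and window regions were small and moved with the setting. The share of all genes moved too, with 22.3% lower in TPA than in Ctrl among all regions and 34.4% with equal-number lists. Apart from the equal-number shares of genes given above, no shares of all genes or regions stand beside the counts below. The moved counts are therefore not a result about the members. No difference of a member whose groups did not overlap changed sign, and all contigs, mid-rank percentiles and the 1000 bp upstream of the start left every count within 1.5 times. With equal-number lists, the members higher in TPA than in Ctrl went from 0 to 1, higher in ZnCl2 than in Ctrl from 0 to 1, higher in TPA than in ZnCl2 from 1 to 0 and lower in TPA than in ZnCl2 from 1 to 2. The regions open in Ctrl and not TPA then went from 0 to 1, in Ctrl and not ZnCl2 from 0 to 1, in TPA and not ZnCl2 from 1 to 4 and in ZnCl2 and not TPA from 0 to 2. With the upper 50% of each list, 0 members were lower in TPA than in ZnCl2, and 2, 4 and 1 regions were open in TPA and not Ctrl, in TPA and not ZnCl2, and in ZnCl2 and not TPA. At the 5′ end of the gene record 1 member was higher and 1 lower in TPA than in Ctrl. Gene bodies without flanks held 0 regions open in TPA and not Ctrl and 0 open in TPA and not ZnCl2, since both lie in the flanks. With an overlap of at least 50%, 2 regions were open in TPA and not Ctrl, 1 in ZnCl2 and not Ctrl, and 3 in ZnCl2 and not TPA.

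Leaving out each library in turn gave 0 to 5 members higher and 3 to 7 lower in TPA than in Ctrl, 0 to 2 higher and 1 to 6 lower in ZnCl2 than in Ctrl, and 1 to 5 higher and 1 to 4 lower in TPA than in ZnCl2. It gave 1 to 4 regions open in TPA and not Ctrl, 0 to 2 in Ctrl and not TPA, 0 to 2 in ZnCl2 and not Ctrl, 0 to 3 in Ctrl and not ZnCl2, 1 to 8 in TPA and not ZnCl2, and 0 to 2 in ZnCl2 and not TPA. One library against 2 is a looser rule than 2 against 2, so counts can only grow. No shares of all genes or regions under that rule are given, so these ranges are not a result about the members. The replicate block gave 1 member higher in TPA than in Ctrl, 4 narrower in TPA than in Ctrl and 3 wider in ZnCl2 than in Ctrl, and left the other counts within 1.5 times. With the numbers crossed, an alternative chosen after seeing the data, 5 members were lower and 1 higher in ZnCl2 than in Ctrl, and 2 were lower and 3 higher in TPA than in ZnCl2. Ranking a start site with no region lowest, also chosen after seeing the data, gave 2 members lower in ZnCl2 than in Ctrl and 2 higher in TPA than in ZnCl2. The cause of these shifts was not tested, except that the equal-number lists hold fewer regions. With 2 libraries per group and unknown depth, a difference that was not seen may have been missed.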
